A study of Caenorhabditis elegans with 2 samples.

Results

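Autosomal peaks listed only in CAR-1(dSm) are stretches of Caenorhabditis elegans transcripts that a crosslinking experiment listed as recovered with the protein form CAR-1(dSm), and at which the list for the other form, CAR-1(FL), had no peak. The members were selected on the positions of the deposited peak lists. A member is a CAR-1(dSm) peak on 1 of the 5 autosomes that overlaps a gene locus of the CAR-1(FL) expression table and shares no base with a CAR-1(FL) peak on the same strand. Of 105255 CAR-1(dSm) peaks, 90076 lay on the autosomes, 82630 of these overlapped a locus, and 37982 were members, which is 46% of the autosomal peaks in loci. The other 44648 overlapped a CAR-1(FL) peak and are called shared peaks here. In the opposite direction, 19465 of 77986 CAR-1(FL) peaks were autosomal, in a locus and without a CAR-1(dSm) peak.

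The study used seCLIP-seq, a single-end form of crosslinking and immunoprecipitation, on strain CZ26430 for CAR-1(dSm) and strain CZ25180 for CAR-1(FL). Both proteins were pulled down with GFP-trap, beads that carry a single-domain antibody to GFP. There was 1 library per form, so no spread between cultures could be measured, no test between the forms was possible here, and every difference below describes these 2 libraries. The labels used here do not give the transgene, its promoter, the tissue that expressed it, the worms' stage and age, or the meaning of dSm. Without an input library, the amount of an RNA and how well it was pulled down cannot be told apart, and neither can fewer cells of a type and less RNA per cell.

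CAR-1 belongs to the LSm14 family of RNA-binding proteins, which carry an Sm-like domain and gather with decapping factors and translational repressors in P bodies and germ granules. In crosslinking and immunoprecipitation, RNA fixed to a protein by ultraviolet light is trimmed, pulled down with the protein and sequenced, so piles of reads mark where the protein sat. A pile listed in 1 library and not in another can differ in binding, in the amount of the RNA, in the number of cells that make it, or in where a peak's edge was drawn. The title of the study names axon regeneration and mitochondrial calcium together with CAR-1, and genes of neurons, of mitochondria and of RNA decay were read separately.

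The authors gave each peak a log2 fold of CAR-1(dSm) over CAR-1(FL), scaled to total reads, and a −log10 p. Total reads came out at 5469000 in CAR-1(dSm) against 4021000 in CAR-1(FL), and the numbers of reads behind a peak were recovered from its fold and p for 74.0% of the members. A CAR-1(FL) number of 1 can stand for 0, and these numbers carry counting error. Recovered members held a median of 10 reads in CAR-1(dSm) against 3 in CAR-1(FL), while recovered shared peaks held 24 and 12. No numbers were recovered where −log10 p was 0, and only 51.2% of the shared peaks had them. A value of 0 was about as common among shared peaks (46.9%) as a fold below 0 (46.2%). Peaks lower in CAR-1(dSm) may thus be missing from these medians, and over all shared peaks the median was 1.04-fold. Read sums below that omit members can lean the same way. In 48.6% of the recovered members CAR-1(dSm) had fewer than 10 reads.

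Absence from the CAR-1(FL) list was not absence of reads. At least 2 CAR-1(FL) reads lay under 77.5% of the 37979 members whose fold gave a ratio of whole numbers, and 3015 recovered members had 10 or more. As a description of what the rule selected, the members' median log2 fold was 0.78 (1.72-fold), with quartiles of 0.29 and 1.29 and a range of −1.77 to 4.77. The shared peaks had a median of 0.06. The peaks listed only in CAR-1(FL) had a median of 0.73 in their own direction. A log2 fold of at least 1 was found in 15054 members (39.6%) and in 23.2% of all CAR-1(dSm) peaks. Against their label, 4988 members (13.1%) had a fold below 0, that is, more reads per total in CAR-1(FL) in a place listed only in CAR-1(dSm). The authors' −log10 p was 0 in 25% of the members and at least 3 in 685. A value of 0 did not mean equal reads. A shared peak of unc-70 with a read ratio of 273 to 544 and a log2 fold of −1.44 also had 0. Among shared peaks 46.9% had a value of 0, near the 46.2% with a fold below 0. A high −log10 p may thus mark only folds above 0.

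**Figure D1:**
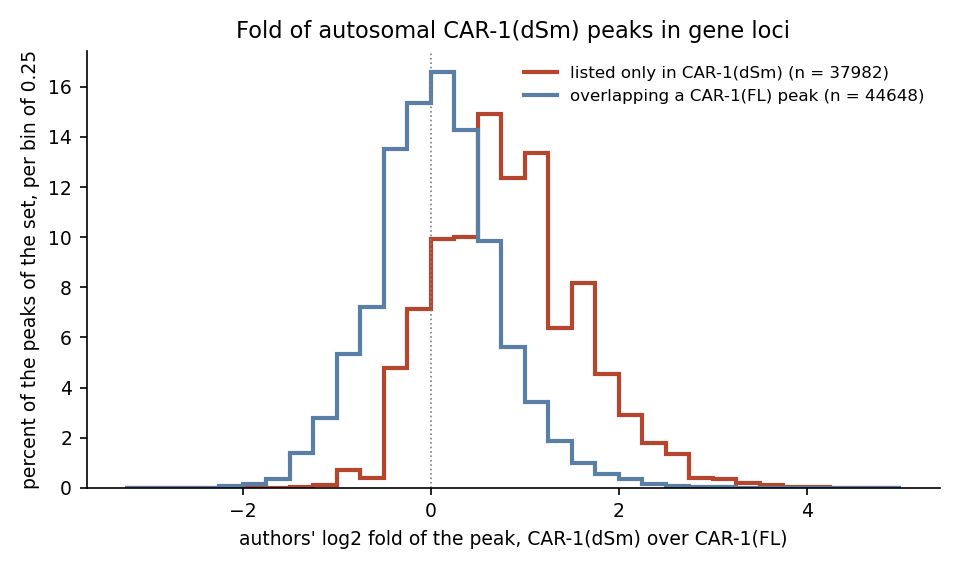
Distribution of the authors' log2 fold over the 37982 peaks listed only in CAR-1(dSm) and the 44648 peaks that overlap a CAR-1(FL) peak, as percent of each set per bin of 0.25. The medians are 0.78 and 0.06, the distributions overlap widely, and 13.1% of the peaks listed only in CAR-1(dSm) lie below 0.

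The same held gene by gene. In 3183 loci with at least 3 members and at least 3 shared peaks, the members' median log2 fold minus that of the shared peaks had a median of 0.70 over loci, with quartiles of 0.45 and 1.0, and was above 0 in 96.7%. The rule and the fold come from the same reads, so this difference is a description and supports nothing further.

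Few members were strongly and clearly different. With the thresholds set at 3 for −log10 p and at 3 for the log2 fold (8-fold), 88 members were counted, or 0.232%, beside 0.119% of all CAR-1(dSm) peaks and 10 of the shared peaks. They lay in 102 loci, counted once for each locus a peak touches, and 62 of them lay in a single locus. Their reads ran from 18 to 305 in CAR-1(dSm), with a median of 26, and from 1 to 21 in CAR-1(FL), with a median of 2. In 29 of the 88 the CAR-1(FL) number was 1, in 39 it was 2, and in 7 CAR-1(dSm) had 50 reads or more. Just short of the fold threshold, at a log2 fold of 2.9 to 3 and a −log10 p of at least 3, lay another 16 members. With the fold threshold at 1, 631 members (1.66%) were counted, beside 1.99% of all CAR-1(dSm) peaks, so at that setting the members were no more often called than the list as a whole.

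**Figure D2:**
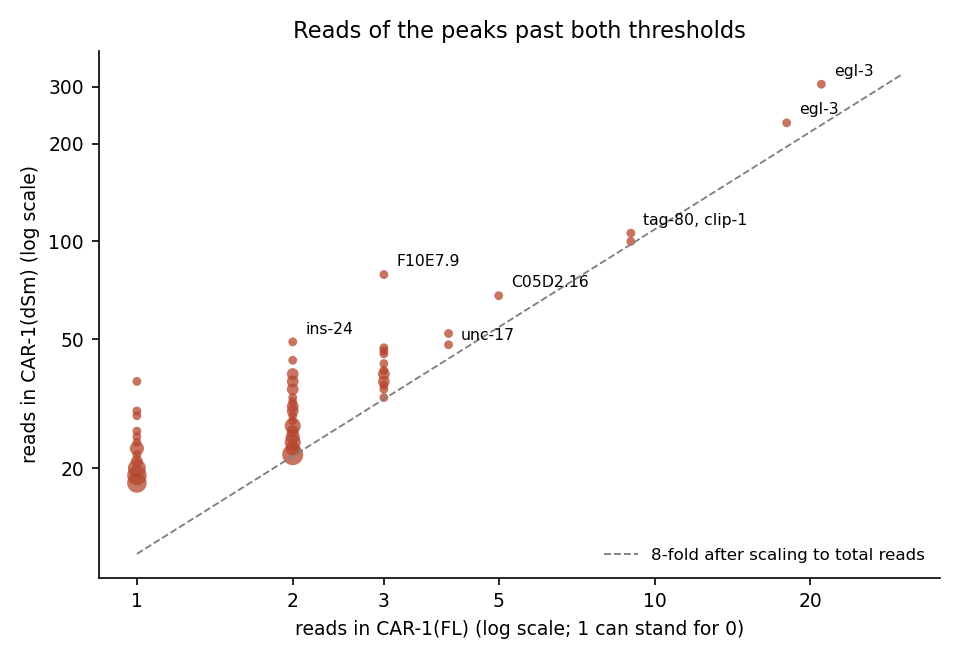
Reads in CAR-1(dSm) against reads in CAR-1(FL) for the 88 peaks past both thresholds, both on log scales, with larger points where peaks coincide and the genes of the 8 highest −log10 p named. Most peaks rest on 1 or 2 CAR-1(FL) reads and the 2 egl-3 peaks, at 305 and 232 CAR-1(dSm) reads, stand highest.

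Among the members past both thresholds, 2 in egl-3, a gene of neuropeptide processing, had the highest −log10 p. Neuropeptides are cut from longer precursors inside dense-core vesicles and released when calcium enters the nerve ending. The egl-3 gene encodes the proprotein convertase that makes the first cut. Its strongest member (V: 10170777 to 10170849 in build ce10, minus strand) had 305 reads in CAR-1(dSm) against 21 in CAR-1(FL), a log2 fold of 3.42 and a −log10 p of 38.3. A neighbouring member (V: 10170879 to 10170934) had 232 reads in CAR-1(dSm) against 18 in CAR-1(FL), a log2 fold of 3.24. These were not isolated differences within the gene: 5 of 22 egl-3 peaks were members, with log2 folds of 1.73 to 3.42, and the 17 shared peaks ran from 1.31 to 2.91. In egl-3, thus, every listed CAR-1(dSm) peak was higher in that library, members and shared peaks alike. The authors' FPKM is a density of sequenced reads scaled to locus length and library size. For egl-3 it was 2.88 (interval 1.89 to 3.87) in CAR-1(dSm), against 0.860 (0.0566 to 1.66) in CAR-1(FL).

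The other members past both thresholds in peptide genes were fewer in reads. In nlp-15, a neuropeptide precursor, a member near the 3′ end (I: 12994977 to 12995010, plus strand) had 46 reads in CAR-1(dSm) against 3 in CAR-1(FL), a log2 fold of 3.49. It lay between shared peaks, 8 bases from a CAR-1(FL) peak, and the 10 shared peaks of nlp-15 had log2 folds of 1.36 to 2.32. In ins-24, which encodes an insulin-like peptide, both listed peaks were members past the thresholds, the stronger (I: 14031534 to 14031585, minus strand) with 49 reads in CAR-1(dSm) against 2 in CAR-1(FL). This locus lies inside the noncoding locus Y41C4A.23, so the reads cannot be assigned to either. In unc-31, which encodes the CAPS protein that primes dense-core vesicles for release, 30 of 43 peaks were members, and 1 past the thresholds (IV: 12782828 to 12782873, plus strand) had 40 reads in CAR-1(dSm) against 3 in CAR-1(FL).

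No other peptide-processing enzyme of the lists had a member past both thresholds. The values of egl-21, sbt-1, pghm-1, pamn-1 and cpd-1 were seen before these genes were chosen. In egl-21, the carboxypeptidase that trims the cut peptides, 5 members had log2 folds of 1.66 to 2.93, and the 16 shared peaks had 1.58 to 2.80. In sbt-1, the chaperone that EGL-3 needs, 4 members had 2.43 to 2.98 and the 6 shared peaks had 1.33 to 2.12. Higher members are not particular to sbt-1, since their median was the higher in 96.7% of loci with at least 3 of each kind. The single member of pghm-1, an enzyme of peptide amidation, had a log2 fold of 2.76, with 92 reads in CAR-1(dSm) against 10 in CAR-1(FL). In pamn-1, another amidation enzyme, and cpd-1, a carboxypeptidase, the median was 1.14 over 5 and 7 members, and the highest −log10 p was 0.758 and 0.824.

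Across the peptide lists the tilt was broad. Among 44 members in neuropeptide precursor genes the median log2 fold was 2.02 and 37 were at 1 or above. Of these, 14 in 9 genes (31.8% of the 44) also had a −log10 p of at least 3. Reads were recovered for 39 of the 44 members and summed to 873 in CAR-1(dSm) against 149 in CAR-1(FL). Among 93 members in the processing and dense-core vesicle list the median was 1.56 and 77 were at 1 or above. Of these, 18 in 6 genes (19.4% of the 93) also had a −log10 p of at least 3. Over the members in all loci of at most 100000 bases the median was 0.78 and 39.6% were at 1 or above. Both cuts were passed by 1.66% of those members and by 1.99% of all CAR-1(dSm) peaks. The shared peaks leaned the same way, at a median of 1.72 for precursors and 1.46 for processing, against 0.05 for all genes. The lean was thus found at peaks of both kinds, and only 21.6% of the 204 precursor-gene peaks were members, below the 46.2% of all genes.

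Genes of synaptic transmission came next. Acetylcholine is loaded into vesicles by UNC-17, and choline is taken back up by CHO-1. In unc-17, 12 of 14 peaks were members, of which 2 passed the thresholds: 1 (IV: 3621220 to 3621314, minus strand) had 52 reads in CAR-1(dSm) against 4 in CAR-1(FL), and 1 (IV: 3622977 to 3623001) had 31 and 2. The 12 members had log2 folds of 0.78 to 3.51, whereas both shared peaks, at −0.44 and 1.36, were lower than the members' median of 2.08. Both peaks past the thresholds also lay in the overlapping loci B0524.9 and H06I04.11. In cho-1 a member (IV: 13211375 to 13211506, minus strand) had 30 reads in CAR-1(dSm) against 2 in CAR-1(FL). In syd-1, which encodes a presynaptic assembly protein, 3 of 9 members passed, with 35, 23 and 18 reads in CAR-1(dSm) against 2, 2 and 1 in CAR-1(FL). Single members passed in rimb-1, a RIM-binding protein of the active zone (23 reads in CAR-1(dSm), 1 in CAR-1(FL), also inside Y82E9BR.26), and in egl-19, the pore subunit of a voltage-gated calcium channel (23 and 2). The synaptic list held 195 members with a median log2 fold of 1.43 and the neurotransmitter list 101 with a median of 1.40.

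Channels, axonal transport and guidance genes had similar values. The member in slo-1, a calcium-activated potassium channel (V: 18492281 to 18492353, plus strand), had 27 reads in CAR-1(dSm) against 2 in CAR-1(FL). The member in unc-103, a potassium channel of the ERG family (III: 4142955 to 4143032, plus strand), had 29 and 2. In unc-104, the kinesin that carries synaptic vesicle precursors, the member (II: 7007410 to 7007461, plus strand) had 33 reads in CAR-1(dSm) against 3 in CAR-1(FL). A member in jip-1, a kinase scaffold, had 20 reads in CAR-1(dSm) against 1 in CAR-1(FL) and also lay in C13A10.5 and Y49F6B.16. Among guidance genes, madd-4, a secreted organiser of synapses and muscle arms (I: 8933910 to 8933967, minus strand), had 30 reads and 1 read, and mig-10, an adaptor of actin assembly in growing axons (III: 8303070 to 8303086, plus strand), had 19 and 1. Median log2 folds were 1.29 over 284 members in the channel list, 1.33 over 271 in the axonal cytoskeleton and transport list and 1.33 over 267 in the guidance list.

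Long axonal genes held many members, none of them past both thresholds in unc-44 and unc-70. In unc-44, an ankyrin that organises the axon's membrane skeleton, 49 of 148 peaks were members, each with a log2 fold above 0 (0.40 to 2.57). Their reads summed to 2685 in CAR-1(dSm) against 642 in CAR-1(FL). Of the 49, 25 had a −log10 p of at least 3 with a log2 fold of at least 1, a setting passed by 1.66% of all members. Those sums leave out its shared peaks, and the FPKM of the whole locus was 5.70 in CAR-1(dSm) (5.21 to 6.19) against 4.90 in CAR-1(FL) (4.15 to 5.66), with intervals that overlap. The following gene was chosen after its values were seen. In unc-70, the β-spectrin of the same skeleton, 15 of 18 peaks were members with log2 folds of 1.1 to 2.24 and summed reads of 1776 in CAR-1(dSm) against 413 in CAR-1(FL). The 3 shared peaks of unc-70 went the other way, at −1.28 to −1.44, side by side (V: 6889058 to 6889130, plus strand). Their reads were not recovered. The last of them gave a read ratio of 273 to 544 in lowest whole numbers. It thus held at least 544 CAR-1(FL) reads, more than the 413 summed over the 15 members. The unc-70 FPKM was 10.7 in CAR-1(dSm) (9.71 to 11.7) and 5.51 in CAR-1(FL) (4.69 to 6.32).

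**Figure D3:**
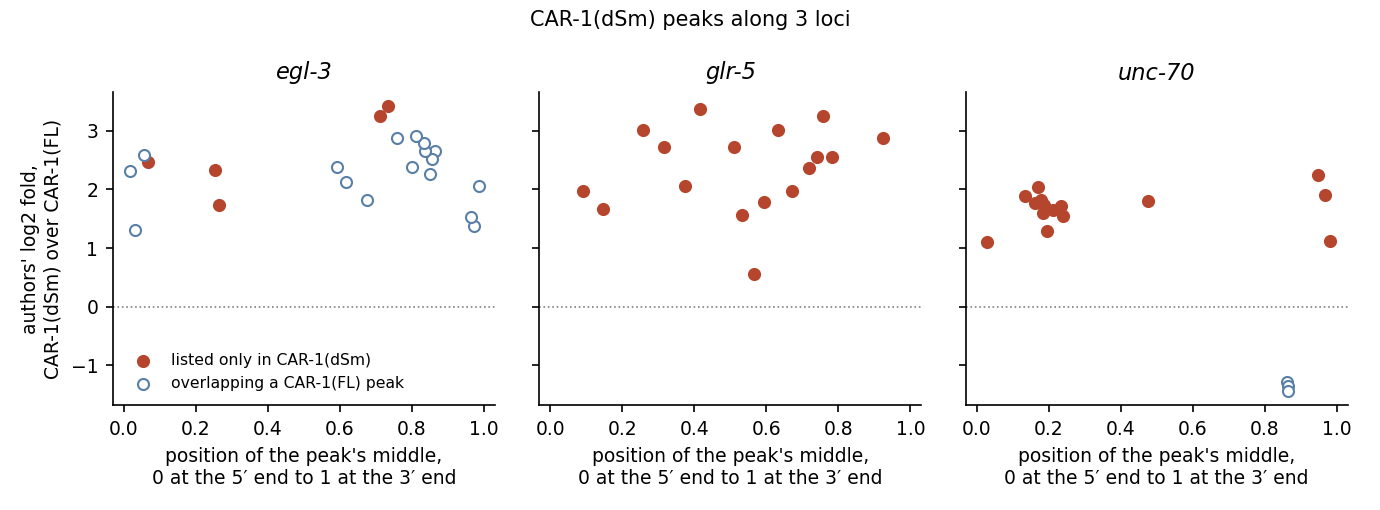
Authors' log2 fold of every listed CAR-1(dSm) peak along egl-3, glr-5 and unc-70, with the position of its middle from the 5′ end at 0 to the 3′ end at 1. Members and shared peaks of egl-3 all lie above 0, all 17 peaks of glr-5 are members, and in unc-70 the 15 members lie above 0 while 3 shared peaks lie below it.

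The lists of signalling, RNA-binding and mitochondrial genes each had at most 2 members past both thresholds. So did the neuropeptide precursor, channel, axonal transport and guidance lists, so this marks no difference from them. Of all members 0.232% passed, and of all CAR-1(dSm) peaks 0.119%. The lists differ in size, so these counts do not rank them. In the G protein and calcium list 267 members had a median log2 fold of 1.05, and the only one past both thresholds lay in ckk-1, a calmodulin kinase kinase (25 reads in CAR-1(dSm), 2 in CAR-1(FL)). The 10 members of ckk-1 had a median of 0.88, and 3 were below 0. Of 97 members in the splicing list the median was 0.93, and both that passed lay in unc-75, a neuronal splicing factor of the CELF family. They sat next to each other (I: 11597368 to 11597430 and 11597328 to 11597367, plus strand) with 42 and 27 reads in CAR-1(dSm) against 3 and 2 in CAR-1(FL). In the list of known regulators of axon regrowth, 178 members had a median of 0.94, 80 (44.9%, against 39.6% for all genes) were at 1 or above and none passed both thresholds. A list of 178 members is too small for that to be told from the 0.232% of all members. A −log10 p of 3 at a log2 fold of 1 or more was reached by 5 members in 3 genes, which is 2.81%, near the 1.66% of all members and the 1.99% of all CAR-1(dSm) peaks. Those genes were egl-30, a G protein alpha subunit, lin-41, an RNA-binding protein, and vhp-1, a phosphatase of stress kinases.

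Members in genes of mitochondrial calcium and dynamics had lower folds than members at large. The list held 49 members with a median log2 fold of 0.64, against 0.78 for all genes, and 12 (24.5%) were at 1 or above, against 39.6%. The member past the thresholds in ric-7, which mitochondria need to enter axons, had 18 reads in CAR-1(dSm) against 1 in CAR-1(FL) (V: 13993042 to 13993069, plus strand) and also lay in F58E10.7, so it cannot be assigned. In micu-1, the regulator of the mitochondrial calcium uniporter, 3 of 8 peaks were members. They had 39, 13 and 8 reads in CAR-1(dSm) against 12, 7 and 2 in CAR-1(FL), with −log10 p values of 2.01, 0.181 and 0.685. In mcu-1, the uniporter's pore, 1 of 8 peaks was a member, with 13 reads in CAR-1(dSm) against 7 in CAR-1(FL). None of these 4 reached a −log10 p of 3. The micu-1 FPKM was 3.02 in CAR-1(dSm) (0.220 to 5.82) and 0.386 in CAR-1(FL) (0 to 1.63), and those intervals overlap.

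The car-1 gene held the members with the highest −log10 p of all. Of its 17 listed CAR-1(dSm) peaks 5 were members. They had 690, 505, 772 and 423 reads in CAR-1(dSm) against 82, 49, 78 and 71 in CAR-1(FL), and the fifth, at the authors' cap of 400 for −log10 p, gave a read ratio of 914 to 111. Their log2 folds ran from 2.13 to 2.92, all short of the fold threshold, and those of the shared car-1 peaks ran from 1.19 to 2.49. All 5 lay between 12904917 and 12905186 on chromosome I (plus strand). RNA of car-1 may come from the endogenous gene and from a tagged copy, which cannot be told apart in these files. Over the 31 autosomal genes of the RNA decay and granule list, 128 members had a median log2 fold of 0.66, and car-1 and patr-1, a decapping activator, were the genes with a member that reached a −log10 p of 3 at a log2 fold of 1 or more.

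Genes of epidermis and muscle had lower folds. Members in cuticle collagen and epidermal genes had a median log2 fold of 0.09, and 65 of 144 were below 0. Members in body wall muscle genes had a median of 0.20, and 74 of 207 were below 0. The muscle list had 1 member past the thresholds, in the giant filament gene ttn-1, where it also lay in exp-2, a potassium channel gene (25 reads in CAR-1(dSm), 1 in CAR-1(FL)). Medians were 0.66 over 144 members in the germline and oocyte list, 0.54 over 60 in the intestine list, 0.88 over 27 in the sperm list and 0.69 over 13 in the histone list. No member of those 4 lists passed both thresholds. Of all members only 0.232% did, and lists of this size are too small for that to mark a difference. Of 845 peaks in ribosomal protein genes 63 were members (7.46%, against 46.2% for all genes), with a median of 0.58. In translation factors 66 of 288 peaks were members (22.9%), with a median of 0.76. Over all loci the share was also low at high FPKM, at 12.8% from 20 to 100 and 7.14% at 100 or more in CAR-1(dSm). These shares are thus not read as a trait of the 2 lists.

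**Figure D4:**
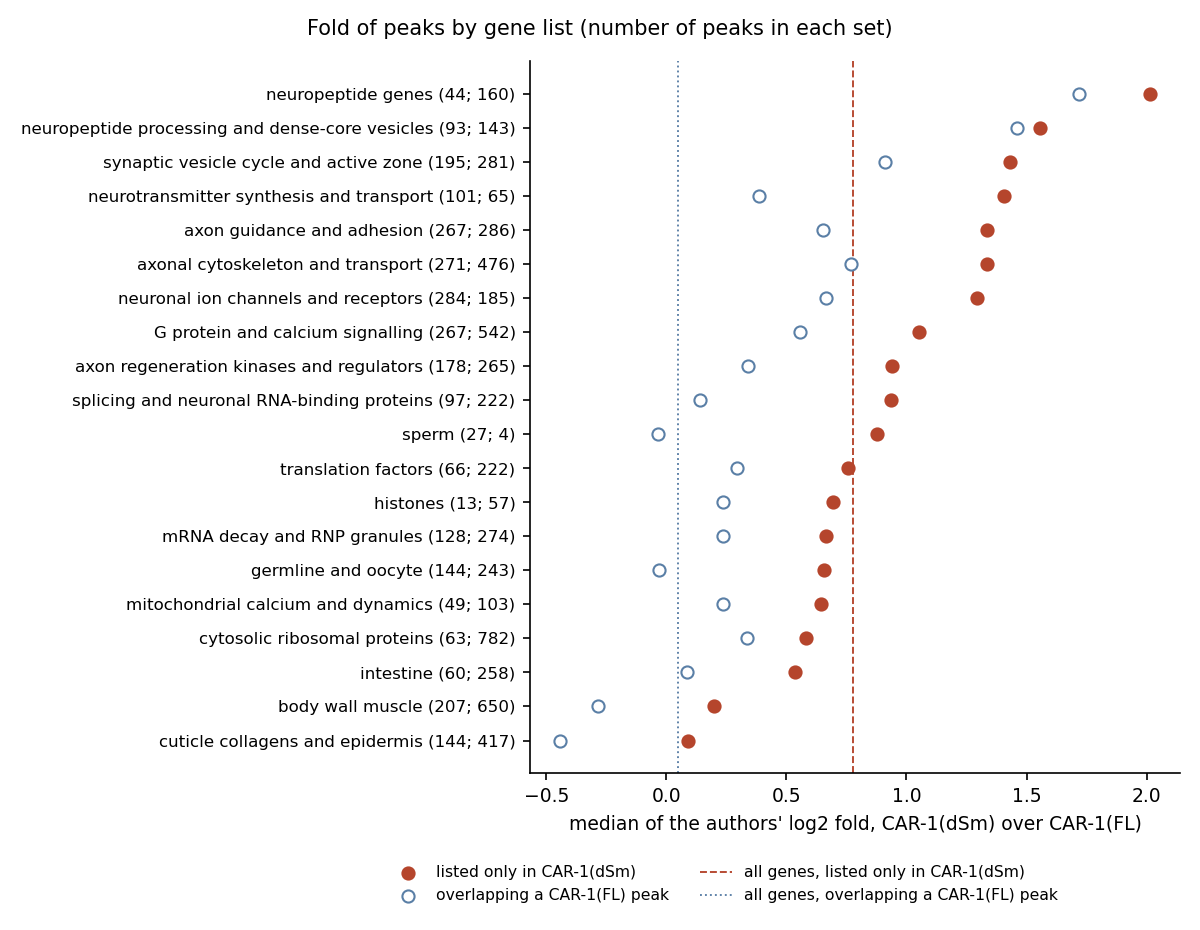
Median of the authors' log2 fold per gene list, for peaks listed only in CAR-1(dSm) and for peaks that overlap a CAR-1(FL) peak, with the 2 numbers of peaks beside each name and the medians over all genes as vertical lines. Neuropeptide genes are highest in both sets (2.02 and 1.72) and collagens lowest in both (0.09 and −0.44).

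The FPKM of neuronal markers moved with these lists. Of 11 neuronal marker genes, 8 had a higher FPKM in CAR-1(dSm) and 1, unc-25, in CAR-1(FL), and their FPKM summed to 13.1 in CAR-1(dSm) against 4.74 in CAR-1(FL). Several of the 8 lay near the floor: in CAR-1(dSm) unc-17 was at 0.337, eat-4 at 0.160, cat-1 at 0.0926 and rab-3 at 0.518. The deposited intervals of the 2 libraries overlapped for unc-17, unc-31 and sbt-1 and were apart for egl-3. Without snb-1, left out after its values were seen, the sums were 8.35 and 4.74. Its FPKM was 4.74 in CAR-1(dSm) and was listed at 0 in CAR-1(FL), although its member had 96 reads in CAR-1(dSm) against 32 in CAR-1(FL). Markers unc-47 and rgef-1 were listed at 0 in both libraries, and eat-4, cat-1, snb-1 and rab-3 at 0 in CAR-1(FL) alone. All 5 muscle and all 5 epidermal markers had a lower FPKM in CAR-1(dSm), with sums of 29.8 in CAR-1(dSm) against 35.4 in CAR-1(FL) for muscle and of 67.4 against 90.05 for epidermis. Intestinal markers summed to 348 in CAR-1(dSm) against 337 in CAR-1(FL), germline markers to 16.1 and 24.4, and sperm markers to 0.165 and 2.04. Single genes were split in each: 3 intestinal, 1 germline and 1 sperm marker were higher in CAR-1(dSm), and 2, 4 and 2 in CAR-1(FL). The neuronal markers include egl-3, unc-17, unc-31, snb-1, rab-3, sbt-1, unc-25 and others of the lists above. The 75 members in neuronal marker genes had a median log2 fold of 1.95, and none was below 0. A larger share of neuronal RNA in the pulled-down material, more RNA per neuron and stronger binding cannot be told apart with 1 library per form.

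Outside the lists lay 65 of the 88 members past the thresholds. After egl-3, the highest −log10 p belonged to F10E7.9, a protein-coding gene without a symbol, where a member (II: 7106979 to 7107087, minus strand) had 79 reads in CAR-1(dSm) against 3 in CAR-1(FL), 19.4-fold. Members with 39 and 48 reads in CAR-1(dSm) against 3 and 4 in CAR-1(FL) also passed in that gene. Peaks in tag-80 (IV: 7622456 to 7622553, plus strand) and clip-1 (III: 9260516 to 9260618, minus strand) had 106 and 100 reads in CAR-1(dSm) and 9 each in CAR-1(FL). The noncoding RNA linc-25 (V: 18725626 to 18725747, minus strand) had 47 reads in CAR-1(dSm) against 3 in CAR-1(FL), and slc-17.7, a solute carrier (V: 9265264 to 9265350, minus strand), had 45 and 3. Peaks in C05D2.16 (68 reads in CAR-1(dSm), 5 in CAR-1(FL)) and R166.10 (43 and 2) lay in deposited loci of 645183 and 403206 bases that span other genes, so those names say little about the RNA. The highest fold of all, 27.2, was that of a member in E02A10.4 with 37 reads in CAR-1(dSm) against 1 in CAR-1(FL).

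At the other end were members that the fold put on the side of CAR-1(FL). The lowest log2 fold, −1.77, was that of a 6-base member shared by the loci of nos-2, a germline regulator of translation, and him-14, with a read ratio of 2 to 5. The next 4, in dsc-4 (a lipid transfer protein), hmit-1.3 (a myo-inositol transporter), C05D10.4 and F55D12.2, had log2 folds of −1.44, a ratio of 1 to 2. The absolute numbers could not be recovered where the authors' −log10 p was 0. A further 1547 members had an equal ratio of 1 to 1 and a log2 fold of −0.44, because total reads were 1.36 times higher in CAR-1(dSm).

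The members with the most reads were not those with the largest difference. Outside car-1 the deepest members with recovered reads lay at small nucleolar RNA loci, a class of RNA that guides chemical changes of ribosomal RNA. They were 3 to 32 bases wide. A 6-base member at Y38F2AR.14 (IV: 2408610 to 2408615, minus strand) had 2779 reads in CAR-1(dSm) against 1803 in CAR-1(FL), 1.13-fold, and also lay in F59H5.5 and Y38F2AR.12. A member at F25H2.15 had 1578 and 966 (1.20-fold), one at F28D1.13 had 1542 and 1000 (1.13-fold), and one at R151.11 had 966 and 633 (1.12-fold). All 4 lay within 5 bases of a CAR-1(FL) peak, and the last pair also lay in the host loci rps-23 and rpl-6. These places were thus deeply covered in both libraries, next to listed CAR-1(FL) peaks. Members made up 9.05% of the 652 peaks in small nucleolar RNA loci, and 46.7% of the 77037 in protein-coding loci.

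Distance from the nearest CAR-1(FL) peak showed the same edge. On the same strand, the gap had a median of 158 bases and quartiles of 59 and 487, and 216 members touched a CAR-1(FL) peak with no base between. The 937 members just inside the rule, with a gap of 0 to 4 bases, had a median log2 fold of 0.36, and 29.1% were below 0. The 2164 shared peaks just outside it, with an overlap of 1 to 5 bases, had a median of 0.07, and 46.4% were below 0. The median was 0.78 at gaps of 10 to 49 bases (6165 members) and 1.14 at gaps of 1000 bases or more (5800 members). The share past both thresholds went the other way, at 0.389% (24 members) and 0.121% (7 members). Members were narrower than shared peaks, with a median width of 33 bases against 48, and near the 31 bases of peaks listed only in CAR-1(FL). The 88 past the thresholds had a median width of 55 bases.

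Members made up the highest share of peaks where the deposited FPKM was lowest. In loci with a CAR-1(dSm) FPKM of 0, 59.0% of the peaks were members, and the share was lower in each next class: 50.1% under 1, 37.0% from 1 to 5, 23.2% from 5 to 20, 12.8% from 20 to 100 and 7.14% at 100 or more. Ordered by the CAR-1(FL) FPKM instead, the share was 59.7% at 0 and 6.85% at 100 or more. The deposited FPKM thus moved with membership, and its part in the lists above was not tested. It was made from the same pulled-down reads as the peaks, so it is not the amount of the RNA alone. A listed FPKM of 0 was not absence of reads either: agr-1 was at 0 in both libraries and had 30 CAR-1(dSm) peaks.

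**Figure D5:**
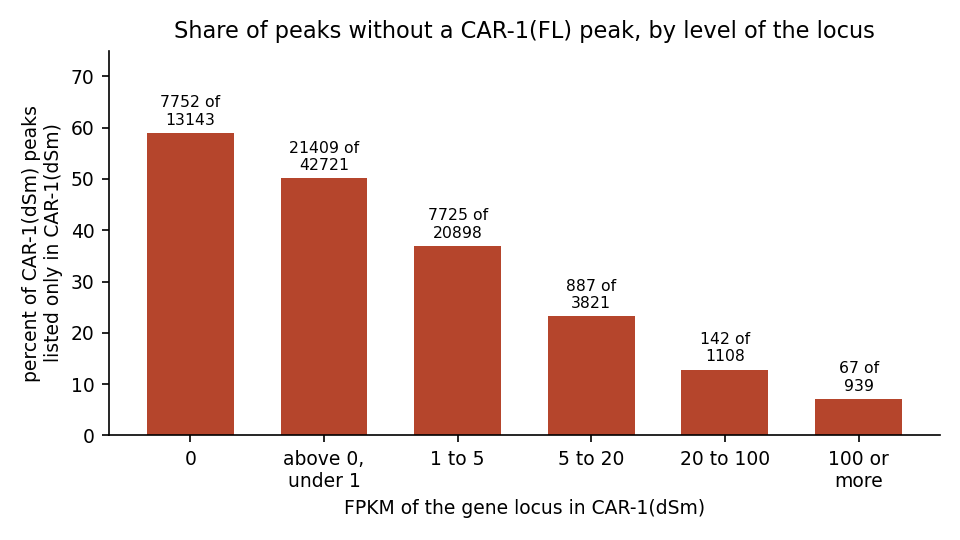
Percent of autosomal CAR-1(dSm) peaks in loci that were listed only in CAR-1(dSm), by the FPKM of the peak's shortest locus in CAR-1(dSm), with the numbers of peaks above each bar. The share is 59.0% at an FPKM of 0 and 7.14% at an FPKM of 100 or more.

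The members were spread over many genes. Of 11085 loci with an autosomal CAR-1(dSm) peak 9589 held a member, with a median of 3, and 2683 held exactly 1. A share of 25.1% of the members lay in more than 1 locus. Among loci of at most 100000 bases the most members were found in the noncoding loci Y41E3.460 (81 of 226 peaks), B0286.8 (67 of 126), Y57A10A.40 (55 of 134) and H37A05.5 (49 of 97), which are long and span other genes. The genes with most were dig-1, a giant protein of the matrix that keeps axons in place (80 of 132 peaks), tag-80 (67 of 157), ttn-1 (62 of 153) and unc-44. The members of dig-1 had a median log2 fold of 0.84, and the 79 with recovered reads held 1280 in CAR-1(dSm) against 490 in CAR-1(FL). Those of tag-80 had a median of 1.8, none below 0, and 1731 reads against 364. Those of ttn-1 had a median of 0.14, with 29 below 0. The share was lowest on chromosome I and highest on V, with 43.2% of peaks being members on chromosome I and 49.7% on V, and 19377 members lay on the plus and 18605 on the minus strand.

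In 1796 loci with a member the CAR-1(FL) list had no peak on either strand. These loci were lightly covered, with a median of 1 member. The largest was glr-5, an ionotropic glutamate receptor subunit, with 17 members spread from the 5′ to the 3′ part of the locus. Their reads summed to 211 in CAR-1(dSm) against 34 in CAR-1(FL), and each had a log2 fold above 0, from 0.56 to 3.36, though none had more than 17 reads or a −log10 p of 3. Next were des-2, an acetylcholine receptor subunit (13 members), dpy-19, a sugar-transferring enzyme needed for neuroblast migration (12 members), and kri-1, an ankyrin-repeat protein (12 members). Recovered reads summed to 84 in CAR-1(dSm) against 22 in CAR-1(FL) over 11 members of des-2. They summed to 41 and 14 over 10 members of dpy-19 and to 38 and 13 over 7 members of kri-1. The other 4 named loci were F22D3.6, acc-4, an acetylcholine-gated chloride channel, frpr-9, a putative peptide receptor, and slc-17.7, with 11 members each. Members of acc-4 had 105 reads in CAR-1(dSm) against 25 in CAR-1(FL), and those of slc-17.7 had 221 and 42. In F22D3.6 the members' median log2 fold was 0.14 and 3 were below 0.

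Loci with members had the same median FPKM difference between the libraries as autosomal genes at large. Over 2640 loci with a member whose FPKM reached 1 in a library, log2(FPKM + 1) in CAR-1(dSm) minus that in CAR-1(FL) had a median of −0.08, equal to the −0.08 over 3846 autosomal genes. Over the 26 such loci with a member past both thresholds the median was 0.75. Of all 78 loci of at most 100000 bases with a member past both thresholds, 54 had a higher FPKM in CAR-1(dSm), 14 in CAR-1(FL), and 10 were listed at 0 in both. The deposited intervals were apart in 10, all higher in CAR-1(dSm). FPKM was made from the same 2 libraries as the peaks, so it is no independent readout.

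Along the locus, members and shared peaks had similar median positions. With 0 at the 5′ end and 1 at the 3′ end, the middle of a member had a median position of 0.54 (27581 peaks in a single locus of 500 to 100000 bases), shared peaks had 0.54 and peaks listed only in CAR-1(FL) had 0.52. Both ends held fewer members than shared peaks: 10.9% of members against 14.5% of shared peaks lay below position 0.1, and 14.1% against 17.2% lay at 0.9 or above. The 58 members past both thresholds that could be placed had a median position of 0.69, and 9 lay at 0.9 or above. Exons, introns and UTRs were not described because no annotation of build ce10 was used here.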

How the data were processed

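A peak list and an expression table per library were used, grouped by sample title. Processing notes of the submitters give UMI-tools, cutadapt, STAR and SAMtools, with build ce10. The peak caller and annotation were not stated in the sources read. From its values, each list holds the authors' deposited −log10 p (capped at 400) and log2 fold. The FPKM values and intervals were deposited by the authors in a Cufflinks layout per the file headers.

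Overlaps were made with pyranges 0.1.4 in Python 3.11.15 (1 base, same strand). Loci have no strand and were matched on either. A named peak takes its shortest locus. Read numbers are whole numbers that gave back the authors' fold and p, by Fisher's exact test below 5 reads and by a Yates-corrected chi-square otherwise, within a relative 0.003 on −log10 p. In simulated peaks higher in the list's own library, made with the same tests, 99.7% of 1918 with a p below 1 came out right. This checks the calculation only, not whether the authors used these tests. The 56 members that overlap a CAR-1(FL) peak on the other strand were kept. Gene types came from a RefSeq table of assembly WBcel235 (41117 of 41560 names matched), with no coordinates.

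Genes were named by rule: 12 members by −log10 p among log2 folds of 3 or more, 8 loci by members, 8 without a CAR-1(FL) peak, list genes past both thresholds, the 5 lowest folds, the 5 deepest loci, and car-1, micu-1 and mcu-1. The members, the 20 lists (886 genes) and the rule were chosen with earlier results of these data known. Alternatives changed the overlap, strand, loci, distance, list length, reads, thresholds, pseudocount and FPKM filter. The authors' table comparing both libraries was not used.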

Additional observations from a re-analysis of the deposited data

How the results depend on the processing

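With 1 library per form, none of these results has a replicate check, and read numbers limit single peaks: a median of 10 reads lay under a recovered member. The number of members was 46501 when a peak counted as shared only if 50% or more of it was overlapped, 34414 with the CAR-1(dSm) list shortened to the length of the CAR-1(FL) list, 30110 at 50 bases or more from a CAR-1(FL) peak, and 14431 with at least 10 recovered reads. The median log2 fold of 0.78 was 0.69, 0.88, 0.82 and 0.97 under those settings. The 88 members past both thresholds were 36 at a −log10 p of at least 5 and 631 at a log2 fold of at least 1, and the 18 list genes holding them were 11 at 50 bases or more from a CAR-1(FL) peak. The median position of 0.54 was 0.53 at 50 bases or more, 0.58 with at least 10 reads and 0.55 in loci of 2000 to 100000 bases. The median FPKM difference of −0.08 was −0.12 with a pseudocount of 0.1, −0.00756 at an FPKM of at least 5 and 0 without a filter. The cause of these shifts was not tested. Matching on either strand, the loci of the CAR-1(dSm) expression table and leaving out loci over 100000 bases moved neither the counts nor the medians of fold and position beyond the limits set for calling them different; the FPKM difference was not recomputed under those settings. No paired analysis was possible because each form has 1 library.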
